A study of Mus musculus with 4 samples.

Results

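The glutathione, thioredoxin and NRF2 target genes described here are the antioxidant and detoxification genes of cultured mouse hair follicle stem cells (HFSCs). They were chosen by symbol: all cytosolic glutathione S-transferases of the alpha, mu, pi, theta, omega and zeta classes, all glutathione peroxidases, peroxiredoxins and thioredoxin reductases, and 13 single genes (Nfe2l2, Keap1, Nqo1, Hmox1, Gclc, Gclm, Gss, Gsr, Srxn1, Txn1, Cat, Sod1 and Sod2). This gave 52 of the 24346 genes listed in each library. The cells came from dorsal skin of 4-week-old C3H/HeN mice, were sorted for CD49f and CD34 on their surface, and were grown in the serum-free medium CnT-PR (M-CnT) with weekly passaging. Messenger RNA was sequenced after 10 passages (10p-HFSCs, 2 libraries) and after 48 passages (48p-HFSCs, 2 libraries). Strain, sort and medium were the same in both groups, and no transgene or drug is named for either. Whether the libraries of a group came from separate cultures or mice is not stated, so that p-values measure only the spread between these libraries, which may be technical. The comparison asked how the expression of HFSCs differed between short and long culture.

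Glutathione is a small thiol that cells make from glutamate, cysteine and glycine; glutathione peroxidases use it to reduce peroxides, glutathione S-transferases attach it to electrophiles, and glutathione reductase recycles it. Peroxiredoxins reduce peroxides through their own cysteines and are recharged by thioredoxin and thioredoxin reductase. NRF2 (encoded by Nfe2l2) is the transcription factor that turns on many of these genes from antioxidant response elements, and KEAP1 marks it for destruction until oxidants or electrophiles modify KEAP1. Skin keratinocytes meet oxidants from sunlight, air and their own metabolism, and this system is part of their protection.

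Levels are FPKM, a gene's fragments divided by its exon length and by a divisor for the library, by name its mapped total, so that values of different genes are comparable per length. FPKM carries no read totals. From the spacing of low values, the divisor relative to replicate 1 of 10p-HFSCs was 71.6% in replicate 2 of 10p-HFSCs, and 82.9% and 46.7% in replicates 1 and 2 of 48p-HFSCs. This stands for read depth only if the divisor was the mapped total, so that the shallowest library cannot be named. The libraries were already level by median ratio, with factors of 1 to 1.011, and which divisor was used was not tested. Replicate 2 of 48p-HFSCs, with the smallest divisor, also stood apart in its summed FPKM, at 1414953 against 581516 to 719012 in the others. The 9 markers of hair follicle stem cells and basal keratinocytes summed to 3560 and 2930 FPKM in 10p-HFSCs and to 12800 and 7830 FPKM in 48p-HFSCs, and 7 of them reached 1 FPKM. Krt5 (1473 to 8156 FPKM), Krt14 (1217 to 3896 FPKM), Krt15 (18.8 to 425 FPKM) and Trp63 (42.0 to 124 FPKM) were not called. Itga6, which encodes CD49f (mean 26.1 FPKM, then 90.0 FPKM), and Itgb4 (46.4 to 109 FPKM) were called higher in 48p-HFSCs, and Sox9 (45.6 and 44.2, then 20.2 and 8.31 FPKM) was called lower. Cd34 (0.0925 to 0.234 FPKM) and Lhx2 (0 to 0.0241 FPKM) were near or at 0 in all 4 libraries, although the cells had been sorted for CD34 before culture. The study found CD34 protein on most cells at both passages. By qRT-PCR, over a series that also included earlier and intermediate passages, it reported Cd34 as maintained and Lhx2 and Sox9 as increased in 48p-HFSCs. The FPKM values of Sox9 went the other way, and those of Cd34 and Lhx2 were too low to show a direction. The reason for the difference in Sox9 and for the low values of Cd34 and Lhx2 was not tested. Marker lists of other cell types moved with the groups as well. The 9 fibroblast markers summed to 77.0 and 64.6 FPKM in 10p-HFSCs and to 1.46 and 2.66 FPKM in 48p-HFSCs, nearly all of it Col1a2 (67.6 and 59.3 FPKM, listed at 0 in both 48p libraries), with Dcn, Lum and Thy1 at 0 in all 4 libraries. The 5 leukocyte markers summed to 0.641 and 0.694 FPKM in 10p-HFSCs and to 64.3 and 104 FPKM in 48p-HFSCs, most of it Cd74 (61.2 and 102 FPKM in 48p-HFSCs), with Ptprc at most 0.0711 FPKM and Cd3e and Tyrobp at 0. The 4 endothelial markers summed to 2.54 and 2.30 FPKM in 10p-HFSCs and to 1.37 and 0.292 FPKM in 48p-HFSCs, and the 6 melanocyte markers to 1.31 and 1.43 FPKM and to 3.60 and 11.9 FPKM. Their part in the results on the antioxidant genes was not tested.

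A few of the antioxidant genes differed between 10 and 48 passages, and most did not pass the test. Of the 52 genes, 40 reached 1 FPKM in at least 2 libraries and were compared with limma, on log2(FPKM + 1) and with Benjamini-Hochberg adjustment over all 11018 genes that passed this filter. A gene was called at an adjusted p under 0.05 and a difference of at least 1 on this scale, which understates the change of low genes. 2 members were called higher in 48p-HFSCs, Gstt3 and Gstm2, and 4 were called lower, Prdx4, Gsta3, Gstm7 and Gsta2. These are 5.0% and 10.0% of the 40, against 10.8% and 9.15% of all genes tested, so that neither share was far above the background. The median difference was -0.20 over the 40 members and -0.03 over all 11018 genes. In 10 members both 48p values lay above both 10p values, in 14 below, and in 16 the groups overlapped; over all genes these arrangements made up 31.7% above and 34.3% below. An unadjusted p under 0.05 was found for 11 members and for 4118 genes in all. The transferases held 5 of the 6 calls (2 higher and 3 lower of 14 tested), and the 26 other members held 1, Prdx4. Of the 40, 38 reached 1 FPKM in both groups. Prdx4 passed only through its 10p libraries and Gstt3 only through its 48p libraries, so that these 2 had to differ, and the counts of called members are a description only. Leaving out a library leaves 1 in its group. Without either library of 10p-HFSCs the calls of the members fell to that of Prdx4, and those of all genes fell too. Without replicate 1 of 48p-HFSCs the calls rose, both of the members and of all genes. The split moved with the scaling as well. It was 1 higher and 7 lower after rescaling to TPM (623 and 812 of all genes, against 1189 and 1008). It was 2 higher and 8 lower after quantile normalization (1286 and 1261 of all genes). A correction for transcript length and GC content also gave 2 higher and 8 lower (1224 and 1172 of all genes). Since RNA was taken from whole cultures, fewer cells that express a gene and less of its RNA per cell cannot be told apart.

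**Figure D1:**
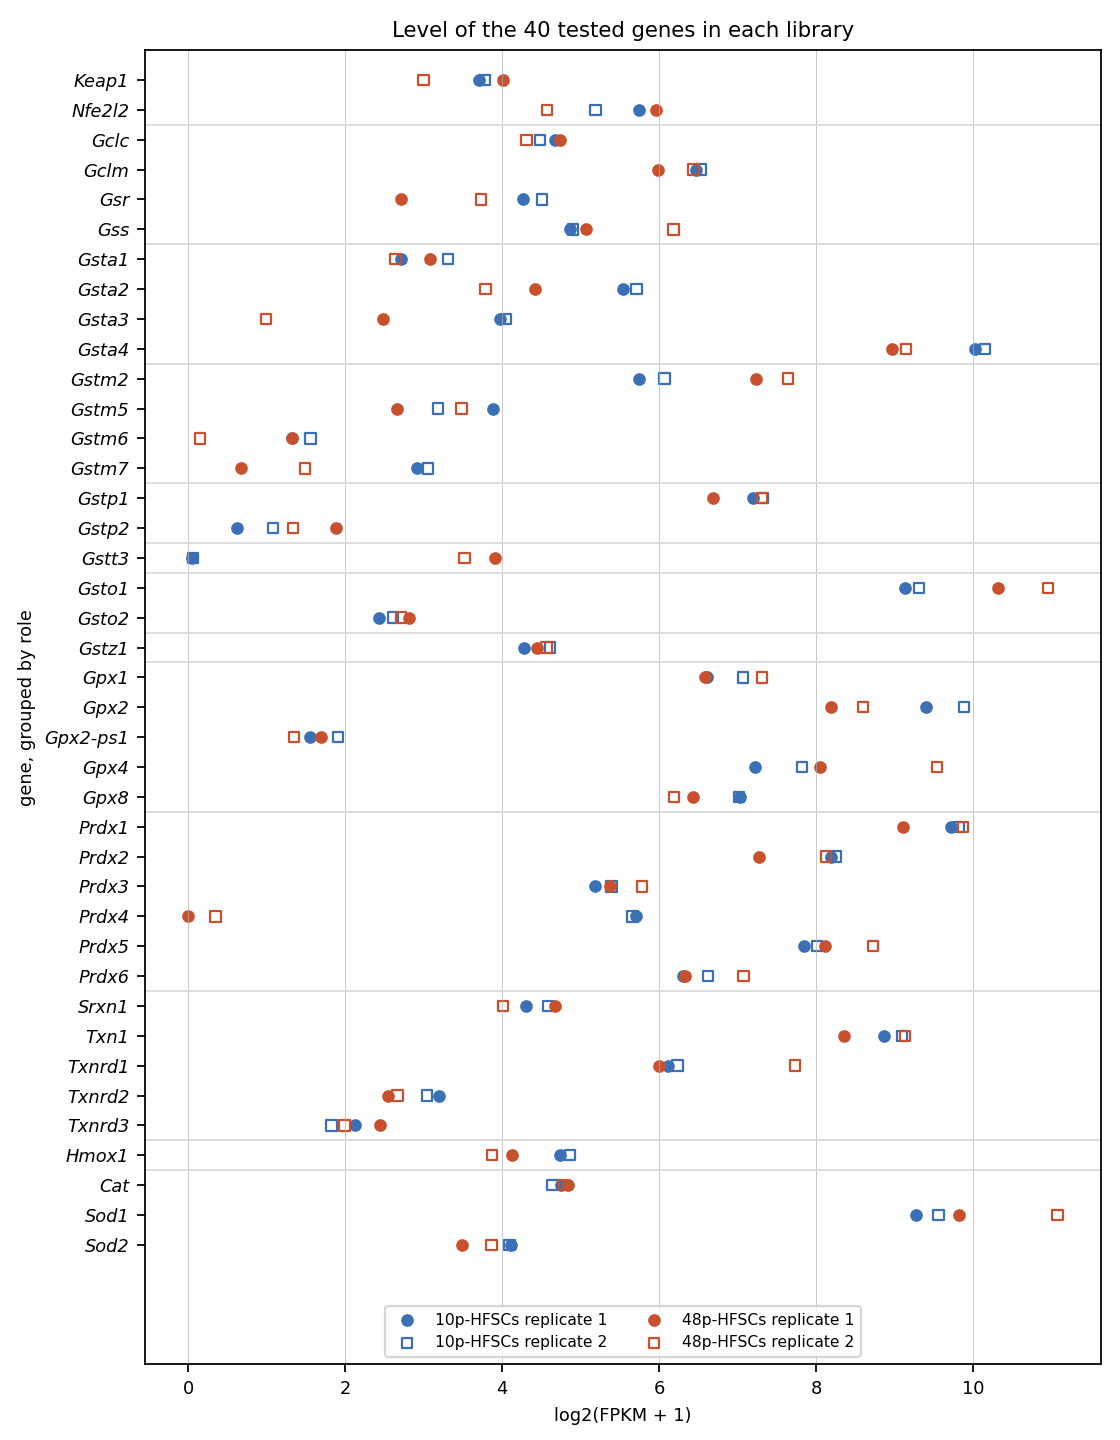
Level of each of the 40 members tested in the 4 libraries, on the log2(FPKM + 1) scale, with blue for 10p-HFSCs, red for 48p-HFSCs, circles for replicate 1 and open squares for replicate 2, and grey lines between roles. The blue and red symbols are farthest apart for Prdx4 (51.1 and 49.6 FPKM against 0 and 0.271 FPKM) and Gstt3 (0.0293 and 0.0409 FPKM against 14.0 and 10.5 FPKM), and overlap or nearly touch for most other members.

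The 52 genes summed to 5970 and 6900 FPKM in 10p-HFSCs and to 5536 and 9402 FPKM in 48p-HFSCs, so that the groups overlapped. As a share of all FPKM in a library, which was largest in total in replicate 2 of 48p-HFSCs, they came to 1.03% and 0.96% after 10 passages and to 0.831% and 0.664% after 48. The order of the most abundant members differed with passage. In both 10p libraries it was Gsta4, at 17.4% and 16.5% of the members' summed FPKM. In 48p-HFSCs the leading pair was Gsto1 (23.0% in replicate 1 and 21.1% in replicate 2) and Sod1 (16.4% and 23.0%), with Gsta4 down to 9.0% and 6.03%. Gsta4 encodes a transferase that favours the lipid peroxidation product 4-hydroxynonenal, Gsto1 an omega class transferase with thioltransferase activity, and Sod1 the cytosolic copper and zinc superoxide dismutase.

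The 2 regulators did not pass the test. Nfe2l2 read 52.5 and 35.5 FPKM in 10p-HFSCs and 61.4 and 22.8 FPKM in 48p-HFSCs, a difference of -0.20 (SE 0.50, 95% interval -1.42 to 1.02, adjusted p = 0.79 by limma). Keap1 read 12.1 and 12.7 FPKM, then 15.1 and 6.99 FPKM, a difference of -0.24 (SE 0.39, -1.19 to 0.72, adjusted p = 0.69). For both genes the 48p replicates fell on either side of the 10p values, and the intervals still allow a change of about the size of the fold limit. Leaving out replicate 2 of 48p-HFSCs turned the sign of both, to 0.50 for Nfe2l2 and 0.27 for Keap1. A list of 16 members taken as NRF2 targets held Nqo1, Hmox1, Gclc, Gclm, Gsr, Srxn1, Txn1, Txnrd1, Prdx1, Gpx2, Gsta1, Gsta2, Gsta3, Gsta4, Gstm1 and Gstp1. It was written with earlier results of these data known and leaves out other members that NRF2 may drive, among them Gstm2, which was called higher, and Gss, whose 48p values lay above. Of the 16, 14 were tested, 0 were called higher and 2 lower (Gsta2 and Gsta3). None of the 14 had both 48p values above both 10p values, 7 had both below, and 7 overlapped, where the background is 31.7% above and 34.3% below. Their median difference was -0.28.

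Promoter windows from RefSeq (build GRCm38.p6, 250 bases before and 50 after each start) were found for 44 of the 52 members, 57 windows in all, and searched on both strands for the core of the antioxidant response element. The core TGACNNNGC was present in 9 member windows (15.8%) and in 12.4% of all 32851 windows. The form TGANTCAGC, which can also hold an AP-1 site, was present in 4 (7.02%) and in 1.19% of all windows, and either form in 11 (19.3%) against 13.0%. The forms overlap, and 1 match in Prdx1, on the other strand, counts for both. No window was found for Gclc, Gpx2-ps1, Gsr, Gsta4, Gstt2, Hmox1, Prdx6 and Prdx6b. The 4 windows with TGANTCAGC belonged to Gstp1, Gstp2, Prdx1 and Srxn1, none of which was called, and TGACNNNGC was in the windows of Gclm, Gsta3, Gstm5, Gstm7, Nfe2l2, Prdx1, Sod1, Srxn1 and Txnrd1, of which Gsta3 and Gstm7 were called lower. These 5 stretches of 29 bases show the TGANTCAGC matches beside the one of Gsta3, with the match in capitals. They lie at chr19:4037968-4037996 (minus strand) for Gstp1, chr19:4042292-4042320 (minus) for Gstp2, chr2:152105469-152105497 (plus) for Srxn1, chr4:116685456-116685484 (plus) for Prdx1, and chr1:21240454-21240482 (plus) for Gsta3.
Gstp1: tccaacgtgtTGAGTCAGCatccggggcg
Gstp2: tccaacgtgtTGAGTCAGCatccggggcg
Srxn1: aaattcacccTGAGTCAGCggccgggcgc
Prdx1: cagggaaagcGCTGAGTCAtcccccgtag
Gsta3: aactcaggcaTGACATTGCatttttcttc
The stretch of Gstp1 reaches into the first exon of its GENCODE gene, and the others lie outside annotated exons. The stretches of Gstp1 and Gstp2 are identical letter for letter, as are long parts of their transcripts. A match is a description of letters in the window and was not tied to binding of NRF2 in these cells.

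Glutathione synthesis and recycling genes were measured in all 4 cases, and none was called. Gclc, the catalytic subunit of the first and rate-limiting enzyme, read 24.5 and 21.4 FPKM in 10p-HFSCs and 25.6 and 18.9 FPKM in 48p-HFSCs (difference -0.05, interval -0.72 to 0.61). Gclm, its modifier subunit, read 87.3 and 91.8 FPKM, then 62.4 and 85.8 FPKM (-0.29, -0.99 to 0.41). In Gclc the groups overlapped, and in Gclm the 48p values lay just below. Gss, the enzyme that adds glycine, read 28.1 and 28.9 FPKM, then 32.5 and 71.7 FPKM (0.74, -0.25 to 1.73, adjusted p = 0.23 by limma), so that its distance from 10p-HFSCs came mostly from replicate 2 of 48p-HFSCs. Gsr, the reductase that regenerates glutathione with NADPH, read 18.2 and 21.8 FPKM, then 5.56 and 12.3 FPKM, a difference of -1.17 (SE 0.39, -2.13 to -0.20, adjusted p = 0.088). Both 48p values of Gsr lay well below both 10p values, and it was called lower without replicate 2 of 48p-HFSCs (-1.67, adjusted p = 0.031).

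Gsr, Hmox1, Nqo1 and Prdx2 are the members on chromosome 8. Over the 565 genes tested on that chromosome the median difference was -0.61, against -0.03 over all genes. There 29 were called higher (5.13%, against 10.8% of all genes) and 112 lower (19.8%, against 9.15%). Both 48p values lay below both 10p values in 346 of the 565, and in 34.3% of all genes, so that low 48p values were common along this chromosome. Other chromosomes were not summarised in this way. Hmox1, the heme oxygenase that is a classic NRF2 target, read 25.6 and 28.1 FPKM in 10p-HFSCs and 16.4 and 13.6 FPKM in 48p-HFSCs. Its groups were well apart, with a difference of -0.80 (SE 0.25, -1.42 to -0.18, adjusted p = 0.075 by limma), which did not pass the test. Nqo1, the quinone reductase that is usually among the strongest NRF2 targets, was nearly silent, at 0.109 and 0.607 FPKM, then 0.262 and 0.233 FPKM, and was not tested. The part of chromosome 8 in the values of these genes was not tested.

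Gsta2, Gsta3 and Gsta4, 3 of the 4 alpha class transferases, all had lower values after long culture in both libraries. Of all genes tested, 34.3% had both 48p values below both 10p values. The class summed to 1106 and 1212 FPKM in 10p-HFSCs and 530.8 and 586 FPKM in 48p-HFSCs. Alpha class enzymes conjugate glutathione to lipid peroxidation products and reduce organic hydroperoxides. Gsta3 (chromosome 1, 21240589 to 21265661 on mm10) read 14.6 and 15.5 FPKM in 10p-HFSCs and 4.59 and 0.982 FPKM in 48p-HFSCs. It was called lower, by 2.27 on the log2(FPKM + 1) scale (difference -2.27, SE 0.51, adjusted p = 0.030 by limma), with a wide gap between groups and a wide spread within 48p-HFSCs, and was not called without the filter on low values (adjusted p = 0.081). Gsta2 (chromosome 9, 78331018 to 78355788) read 45.5 and 51.3 FPKM, then 20.3 and 12.8 FPKM, and was called lower (-1.52, SE 0.30, adjusted p = 0.021). Its 2 groups were far apart, but 34.8% of the windows of read length in its transcripts also occur in other genes, 24.2% in Gm10639, so that its values may be shared with them. Gsta4 was by far the most abundant of the class, at 1040 and 1136 FPKM, then 498.5 and 567 FPKM. The groups did not overlap and the mean in 48p-HFSCs was 0.49 times that in 10p-HFSCs, yet the difference did not pass the test (-1.03, SE 0.48, -2.21 to 0.15, adjusted p = 0.18). It passed after rescaling to TPM (-1.62), quantile normalization (-1.63) and the correction for length and GC content (-1.54). Gsta1 read 5.57 and 8.91 FPKM, then 7.43 and 5.24 FPKM, with overlapping groups, and 81.7% of its windows occur in other genes.

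The mu class, which conjugates a wide range of electrophiles, went in opposite directions within 1 gene cluster. The 7 genes lie within 149.1 kb on chromosome 3, in the order Gstm5, Gstm7, Gstm6, Gstm3, Gstm2, Gstm1 and Gstm4. Gstm2 (107981702 to 107986453, minus strand) read 52.7 and 66.2 FPKM in 10p-HFSCs and 150.0 and 198.5 FPKM in 48p-HFSCs. It was called higher (difference 1.53, SE 0.30, adjusted p = 0.021 by limma), 2.93 times in mean FPKM, with no overlap, but rescaling to TPM took the difference to 0.95 and ended the call (adjusted p = 0.095). Gstm7 (107926334 to 107931817, minus strand) read 6.52 and 7.30 FPKM, then 0.588 and 1.80 FPKM. It was called lower (-1.90, SE 0.35, adjusted p = 0.017), the reverse of Gstm2, and was not called without the filter on low values (adjusted p = 0.056). Gstm6 read 1.49 and 1.94 FPKM, then 1.49 and 0.110 FPKM (-0.70, -1.72 to 0.31), where only replicate 2 of 48p-HFSCs was far from the others. Gstm5 read 13.8 and 8.09 FPKM, then 5.32 and 10.2 FPKM, with overlapping groups. Gstm1 was at 0.448 and 0.313 FPKM in 10p-HFSCs and listed at 0 in 48p-HFSCs, Gstm3 was at 0 to 0.273 FPKM, and Gstm4 was listed at 0 in all 4 libraries. Because Gstm2 outweighed the others, the class summed to 75.1 and 84.1 FPKM in 10p-HFSCs and 157 and 211 FPKM in 48p-HFSCs. The share of windows found in other genes was 0.5% for Gstm2 and 0.0% for Gstm7 and Gstm4, 2.4% for Gstm6, 7.4% for Gstm1, 9.2% for Gstm5 and 13.5% for Gstm3.

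**Figure D2:**
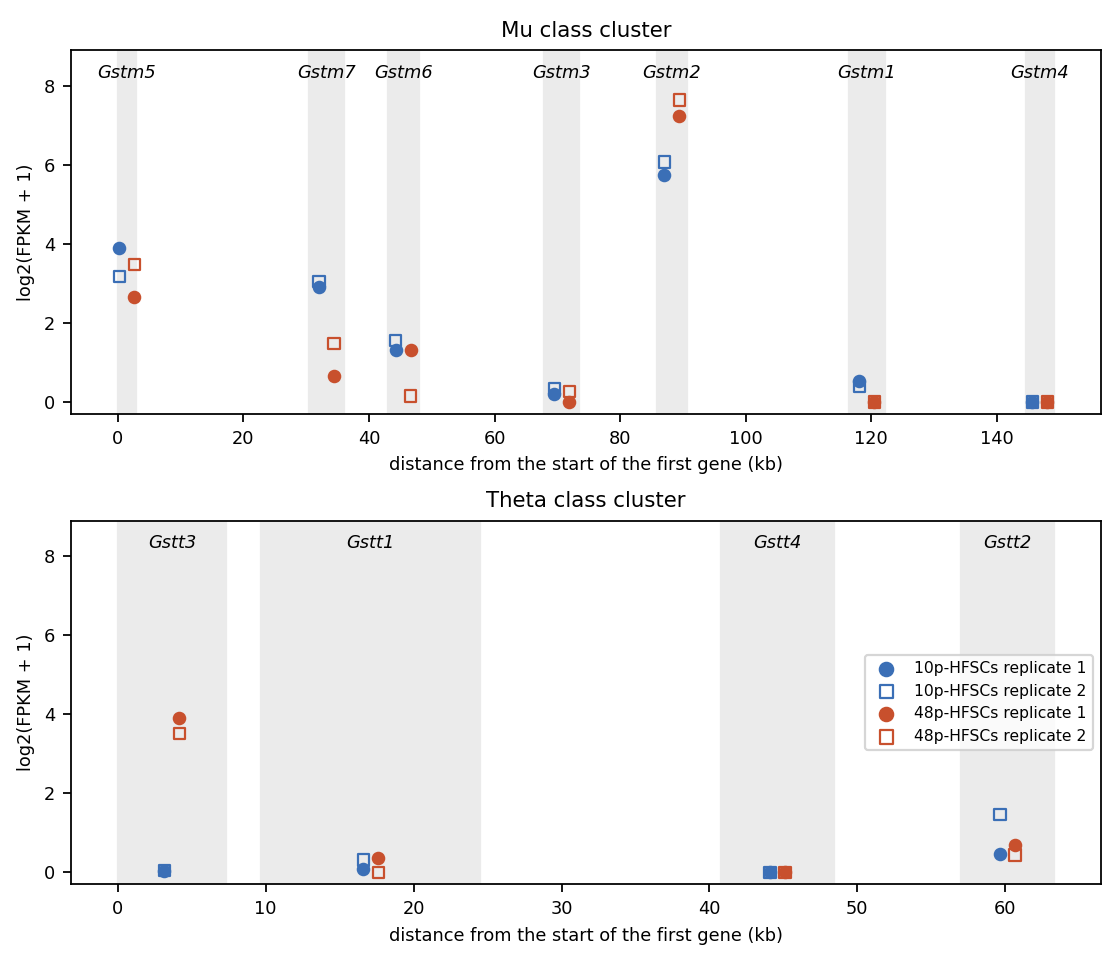
Level of each gene of the mu class cluster (above) and the theta class cluster (below) in the 4 libraries on the log2(FPKM + 1) scale, against the distance in kb from the start of the first gene, with a grey band for each gene, blue for 10p-HFSCs and red for 48p-HFSCs. In the mu cluster the red symbols lie above the blue for Gstm2 and below them for Gstm7, and in the theta cluster only Gstt3 reached 10.5 to 14.0 FPKM in 48p-HFSCs.

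Gstt3, a theta class transferase, gave the widest increase among the members. It read 0.0293 and 0.0409 FPKM in 10p-HFSCs and 14.0 and 10.5 FPKM in 48p-HFSCs. It was next to silent in both early libraries and clearly present in both late ones (difference 3.66, SE 0.27, adjusted p = 0.0011 by limma), and since it passed the filter only through its late libraries, this p too is a description only. The ratio of the 10p values was 1.396, which is also the most common ratio of low values between these libraries, so that both may stand for the same very small number of reads, and no fold is given. Its neighbours in the 63.3 kb cluster on chromosome 10 stayed low, with Gstt1 at 0 to 0.283 FPKM, Gstt2 at 0.359 to 1.75 FPKM and Gstt4 listed at 0 throughout. Of the windows of Gstt3, 23.9% occur in Gm20441, an annotated gene that overlaps it on the same strand. The 150 bases up to 11 bases before its RefSeq start, at chr10:75781425-75781574 (minus strand, GRCm38.p6), are shown because this gene went from next to nothing to a clear level, and its start coincides with that of the GENCODE gene.
Gstt3: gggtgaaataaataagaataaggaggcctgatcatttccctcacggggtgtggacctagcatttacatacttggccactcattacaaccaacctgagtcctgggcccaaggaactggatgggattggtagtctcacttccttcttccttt
The window of 300 bases held 3 CpG and neither form of the antioxidant response element, while the median was 7 CpG over all windows and 13 over the members' windows.

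The other transferase classes held no call. Gsto1 read 561 and 635 FPKM in 10p-HFSCs and 1275 and 1988 FPKM in 48p-HFSCs. Both late values lay far above the early ones, at 2.73 times in mean FPKM, but the difference of 1.41 (SE 0.56, 0.04 to 2.79) had an adjusted p of 0.13 by limma. Gsto2, the next gene on chromosome 19, read 4.40 and 5.11 FPKM, then 6.03 and 5.55 FPKM (0.24, -0.41 to 0.90). Gstp1, the pi class enzyme that is the main transferase of many epithelia, read 146 and 159 FPKM, then 102 and 158 FPKM (-0.26, -1.09 to 0.56), with overlapping groups. Gstp2 read 0.534 and 1.12 FPKM, then 2.68 and 1.52 FPKM (0.76, -0.01 to 1.52, adjusted p = 0.14). Since 52.6% of the windows of Gstp1 occur in Gstp2 and 63.3% of those of Gstp2 occur in other genes, the split of reads between this pair is uncertain. Gstz1, which also isomerises maleylacetoacetate in tyrosine breakdown, read 18.4 and 23.4 FPKM, then 20.8 and 22.7 FPKM (0.07, -0.57 to 0.70), with the late values inside the early range.

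**Figure D3:**
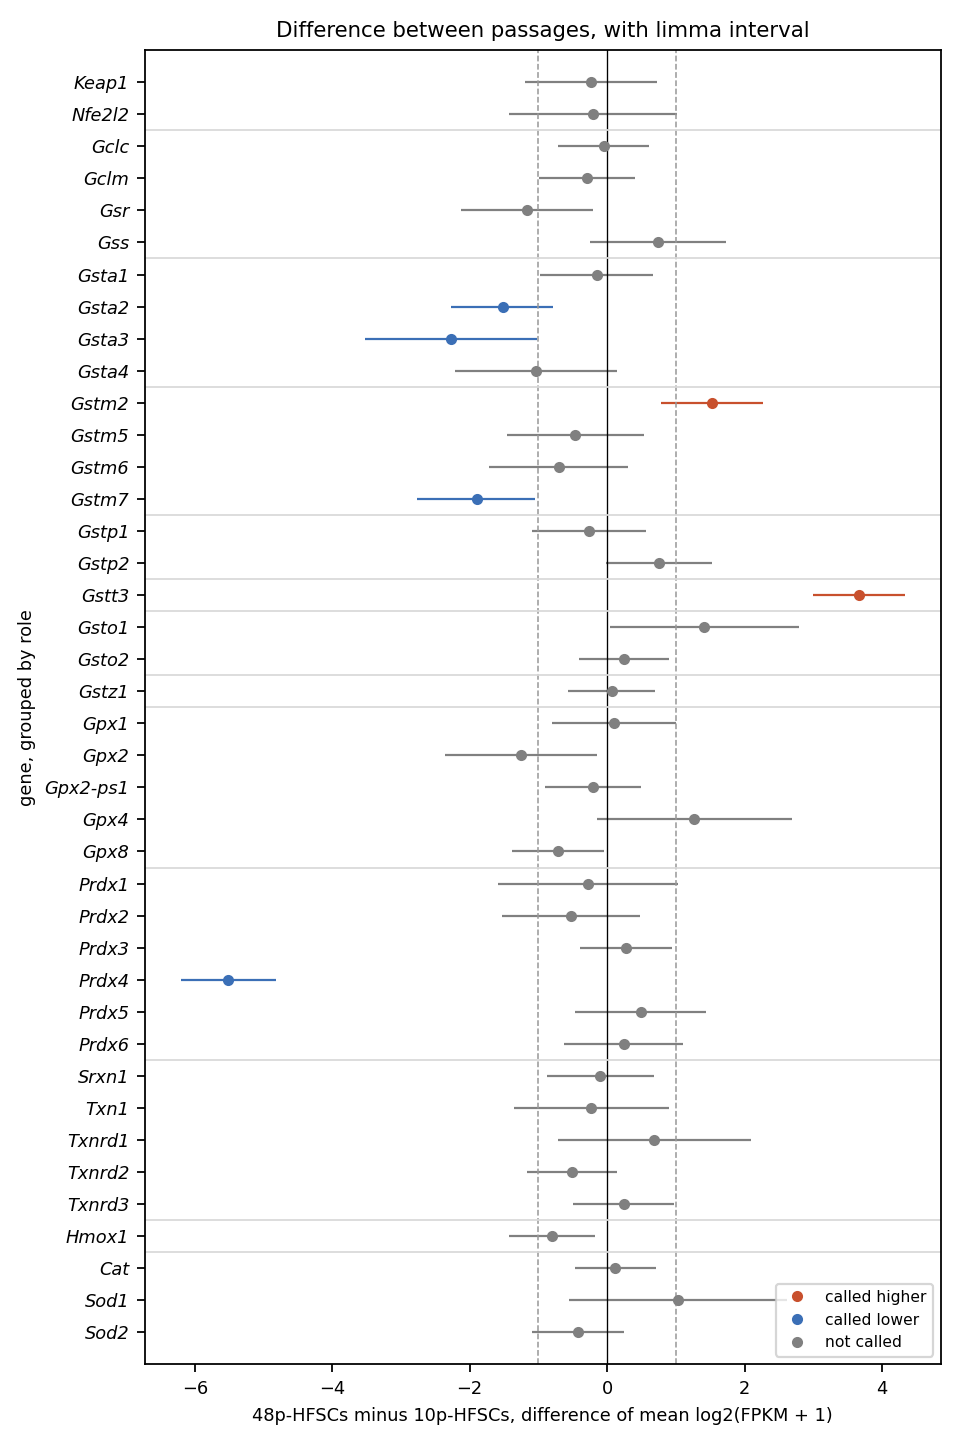
Difference between 48p-HFSCs and 10p-HFSCs in mean log2(FPKM + 1) for each of the 40 members tested (points) with its 95% interval from limma (bars), called genes in red (higher) and blue (lower), and dashed lines at -1 and 1. Only Prdx4, Gsta3, Gsta2 and Gstm7 are called on the left and Gstt3 and Gstm2 on the right, while the intervals of Gsr, Gpx2, Gpx8, Hmox1 and Gsto1 exclude 0 without a call.

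Among the glutathione peroxidases, 5 of 9 were tested and none was called. Gpx2, the epithelial peroxidase and a known NRF2 target, led in every library but replicate 2 of 48p-HFSCs, where Gpx4 was higher, at 678 and 944 FPKM in 10p-HFSCs and 291 and 387 FPKM in 48p-HFSCs. Its early and late values were widely separated, at 0.418 times in mean FPKM (-1.25, SE 0.45, -2.36 to -0.14, adjusted p = 0.10 by limma), and under the same 3 alternatives as Gsta4 it was called lower, at -1.84 to -1.82. Gpx4, which reduces lipid peroxides within membranes and is the main guard against ferroptosis, read 149 and 225 FPKM, then 264 and 746 FPKM. The late values were higher but 2.82-fold apart (1.27, SE 0.58, -0.15 to 2.69, adjusted p = 0.17), and 48.2% of its windows occur in the pseudogene Gpx4-ps2. Gpx8, a peroxidase of the endoplasmic reticulum, read 129.8 and 129 FPKM, then 85.4 and 72.0 FPKM, with little spread within groups (-0.72, SE 0.27, -1.38 to -0.05, adjusted p = 0.12). Gpx1, the ubiquitous cytosolic enzyme, read 97.1 and 133 FPKM, then 95.0 and 157 FPKM, with overlap. The pseudogene Gpx2-ps1 read 1.92 and 2.76 FPKM, then 2.24 and 1.54 FPKM, with overlap. Gpx3, the secreted enzyme, was at 0.149 to 0.762 FPKM, Gpx6 at 0.334 to 1.09 FPKM, and Gpx5 and Gpx7 were listed at 0. The 9 genes summed to 1056 and 1435 FPKM in 10p-HFSCs and 739 and 1366 FPKM in 48p-HFSCs, with the late values spread wider than the early ones.

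Prdx4, the peroxiredoxin of the endoplasmic reticulum that couples peroxide removal to disulfide formation in new proteins, was nearly lost after long culture. It read 51.1 and 49.6 FPKM in 10p-HFSCs (50.4 ± 1.04, SD, n = 2), was listed at 0 in replicate 1 of 48p-HFSCs and read 0.271 FPKM in replicate 2. The difference was -5.51 (SE 0.28, -6.20 to -4.82, adjusted p = 0.00082 by limma), and since the gene passed the filter only through its early libraries, this p is a description and no independent support. The gene lies on chromosome X, from 155323918 to 155340754 on the minus strand of mm10, and 0.0% of its windows occur in another gene. The 145 bases up to 16 bases before its RefSeq start, at chrX:155338476-155338620 (minus strand, GRCm38.p6), are shown beside those of Gstt3 because these 2 genes had the largest differences among the members. The RefSeq start lies 2294 bases inside the GENCODE gene.
Prdx4: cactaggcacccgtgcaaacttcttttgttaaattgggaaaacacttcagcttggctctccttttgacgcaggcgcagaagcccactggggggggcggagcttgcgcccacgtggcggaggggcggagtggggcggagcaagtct
Its window held 20 CpG, against 3 in that of Gstt3, and neither form of the antioxidant response element.

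The other 5 peroxiredoxins tested did not pass, and summed, with Prdx6b, to 1477 and 1603 FPKM in 10p-HFSCs and 1100 and 1826 FPKM in 48p-HFSCs. Prdx1, the abundant cytosolic form and an NRF2 target, read 842 and 902 FPKM, then 550.0 and 936 FPKM (-0.28, -1.59 to 1.03). Prdx2, also cytosolic, read 292 and 305 FPKM, then 154 and 279 FPKM (-0.53, -1.53 to 0.48). In both the lowest value was that of replicate 1 of 48p-HFSCs. Prdx3, of mitochondria, read 35.3 and 41.1 FPKM, then 40.3 and 53.9 FPKM (0.28, -0.39 to 0.95). Prdx5, found in several organelles, read 229 and 258 FPKM, then 276 and 423 FPKM (0.49, -0.46 to 1.44), and 26.6% of its windows occur in Trmt112 on the other strand. Prdx6, which also has phospholipase activity, read 77.8 and 97.8 FPKM, then 79.6 and 134 FPKM (0.24, -0.62 to 1.11). Prdx3 and Prdx6 overlapped between groups, Prdx5 did not, and the signs of all 3 were negative after rescaling to TPM. Prdx6b was listed at 0 in all libraries.

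No gene of the thioredoxin system was called. Txn1, cytosolic thioredoxin, read 464 and 547 FPKM in 10p-HFSCs and 328 and 560.0 FPKM in 48p-HFSCs (-0.23, -1.36 to 0.90). Txnrd1, the cytosolic reductase and an NRF2 target, read 68.5 and 74.3 FPKM, then 62.8 and 212 FPKM (0.69, -0.71 to 2.09, adjusted p = 0.42 by limma), so that replicate 2 of 48p-HFSCs alone stood out. Txnrd2, the mitochondrial reductase, read 8.13 and 7.26 FPKM, then 4.81 and 5.35 FPKM (-0.51, -1.17 to 0.14, adjusted p = 0.21), with no overlap. Txnrd3, a reductase known mainly from testis, read 3.36 and 2.54 FPKM, then 4.46 and 2.97 FPKM, with overlap. Srxn1, sulfiredoxin, which repairs overoxidised peroxiredoxins, read 18.7 and 23.0 FPKM, then 24.5 and 15.1 FPKM, with overlap.

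Catalase and the superoxide dismutases were not called either. Cat, which breaks down hydrogen peroxide in peroxisomes, hardly varied, at 25.9 and 24.0 FPKM in 10p-HFSCs and 27.7 and 26.7 FPKM in 48p-HFSCs (0.12, -0.46 to 0.71). Sod1 read 620 and 754 FPKM, then 906 and 2158 FPKM (1.03, SE 0.65, -0.56 to 2.62, adjusted p = 0.29 by limma), which puts replicate 2 of 48p-HFSCs far above the other 3 libraries. Sod2, the manganese enzyme of mitochondria, read 16.3 and 16.1 FPKM, then 10.2 and 13.6 FPKM (-0.43, -1.09 to 0.24), with both late values below the early ones.

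The late replicates disagreed more than the early ones. In 11 of the 40 members tested the 48p replicates were at least 2-fold apart, against 1 in 10p-HFSCs (Gstp2), and 24 of the 40 had their higher 48p value in replicate 2. This moved with transcript length: over all genes with a length, the median log2(FPKM + 1) difference between replicates 2 and 1 of 48p-HFSCs was 0.87 for the 806 transcripts under 1000 bases and -0.20 for the 5166 of 3000 bases or more, and in 10p-HFSCs 0.38 and -0.13. The members are short, with a median length of 1417 bases against 2938 for all genes tested, and their median difference between 48p replicates was 0.36. Of the 10 members tested with transcripts under 1000 bases, 6 read higher in replicate 2, Sod1 and Gpx4 most among those above 0 in both, and 4 read lower, Gpx2-ps1, Gstp2, Gsta2 and Gsta1. Among members tested and above 0 in both, the largest ratio of replicate 2 to replicate 1, 3.37, was that of Txnrd1, whose transcript has 3622 bases. Gaps in the other direction were wider, with ratios of 0.074 for Gstm6 and 0.214 for Gsta3. Without replicate 1 of 48p-HFSCs, where the lone late library is assumed to vary like the early ones, Gpx4, Gss, Gsto1, Sod1 and Txnrd1 were called higher, by 1.30 to 2.02, and Gstm6 was called lower (-1.29). With each library corrected for length and GC content, Gpx2, Gpx8, Gsta4 and Hmox1 were called lower besides the 6 calls, and the differences of other members moved, from 1.53 to 1.02 for Gstm2, from 1.41 to 0.95 for Gsto1, from 1.27 to 0.72 for Gpx4 and from 1.03 to 0.30 for Sod1. The part of transcript length in the difference between passages was not tested.

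**Figure D4:**
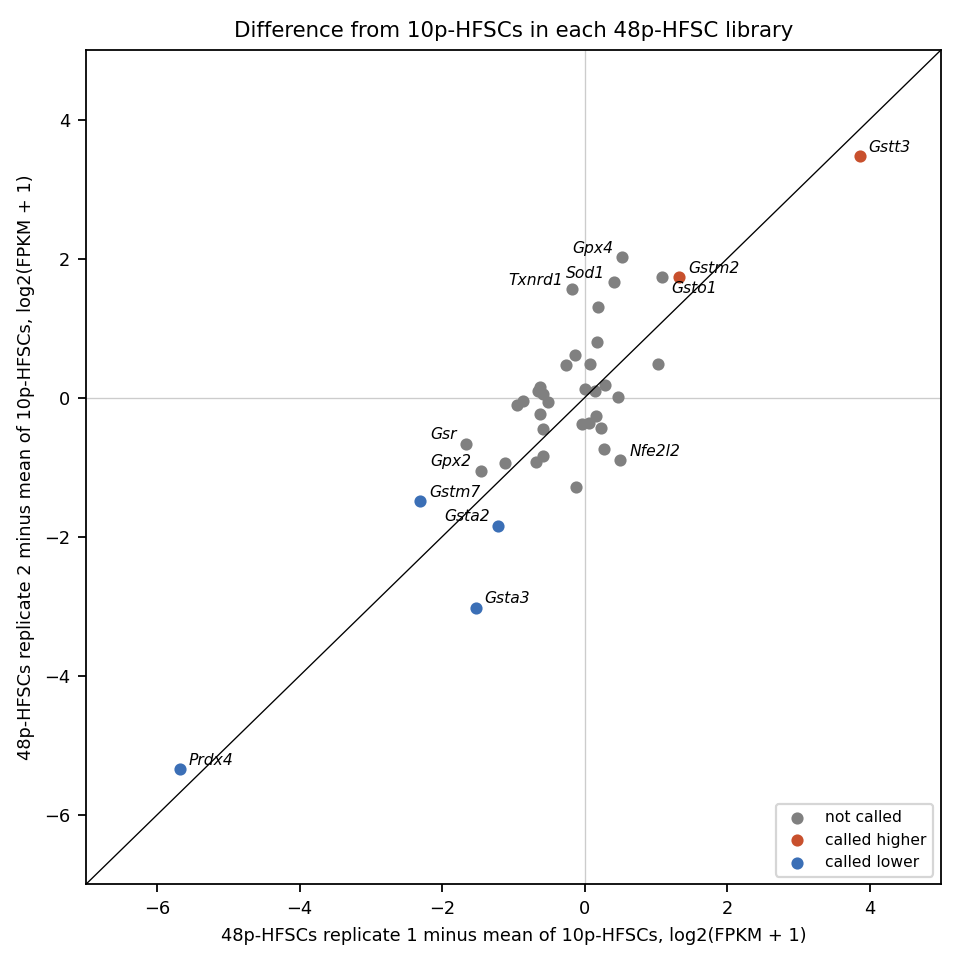
Difference of each 48p-HFSC library from the mean of 10p-HFSCs in log2(FPKM + 1) for the 40 members tested, replicate 1 on the horizontal and replicate 2 on the vertical axis, with called genes in red and blue and the line of equality in black. The 6 called genes have the same sign in both libraries, which being called all but requires. Among uncalled genes, Txnrd1 (-0.18 and 1.56) and Nfe2l2 (0.50 and -0.90) differ in sign, and Gpx4 (0.53 and 2.02) and Sod1 (0.41 and 1.66) lie well above the line.

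Other genes of the same pathways, 70 in 5 lists, were mostly not called. Of the 54 tested, 4 were called higher and 3 lower, 7.41% and 5.56% against 10.8% and 9.15% of all genes, and their median difference was 0.23. Among those called lower, Msrb3 and Hpgds passed the filter only through their 10p libraries and so had to differ. These counts are therefore a description only. After rescaling to TPM, 0 were called higher and 4 lower. Among the relatives, partners and regulators of NRF2, 1 of 9 was called. This was Nfe2l1, the related factor NRF1 that drives proteasome genes, which read 41.2 and 37.7 FPKM in 10p-HFSCs and 109.7 and 109.5 FPKM in 48p-HFSCs (1.45, SE 0.25, adjusted p = 0.013 by limma), with very little spread. Cul3 (66.8 and 68.8, then 42.2 and 71.3 FPKM) and Rbx1 (40.9 and 60.3, then 67.1 and 116 FPKM), the ligase subunits that work with KEAP1, did not pass.

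Among 17 further NRF2 targets, 1 was called. G6pdx, the enzyme that opens the pentose phosphate pathway and makes NADPH, read 82.6 and 70.0 FPKM in 10p-HFSCs and 35.1 and 39.1 FPKM in 48p-HFSCs, with no overlap (-1.02, SE 0.25, adjusted p = 0.041 by limma). Its difference was close to the fold limit, and ran from -1.14 to -0.90 when each library was left out in turn. The ferritin subunits were the most abundant of this list and did not pass. Fth1 read 2731 and 3544 FPKM, then 914 and 2329 FPKM. Ftl1 read 4037 and 7311 FPKM, then 2349 and 10130 FPKM, a spread between replicates that exceeded any distance between passages.

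Of 15 other glutathione enzymes and transporters, Ggct was called higher and Hpgds lower. Ggct, which cleaves gamma-glutamyl amino acids released in glutathione turnover, read 3.50 and 3.65 FPKM in 10p-HFSCs and 13.0 and 24.6 FPKM in 48p-HFSCs (2.05, SE 0.36, adjusted p = 0.015 by limma). Hpgds, the sigma class transferase that makes prostaglandin D2, read 1.88 and 2.07 FPKM, then 0.495 FPKM and a listed 0 (-1.28, SE 0.28, adjusted p = 0.028 by limma). It passed the filter only through its 10p libraries, so that this p is a description only. Glrx3 (78.7 and 151, then 116 and 372 FPKM) and Mgst3 (140.2 and 171, then 222 and 358 FPKM) did not pass.

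Of 8 other thioredoxin and methionine sulfoxide genes, Msrb3 was called lower. It encodes a methionine sulfoxide reductase of the endoplasmic reticulum and mitochondria, and read 18.2 and 16.9 FPKM in 10p-HFSCs and 0.118 and 0.0299 FPKM in 48p-HFSCs (-4.11, SE 0.26, adjusted p = 0.00092 by limma). Like Prdx4, it was clear in both early libraries and close to 0 in both late ones. It too passed the filter only through the early ones, so that its p is a description only. Txn2, mitochondrial thioredoxin (100.5 and 106, then 73.8 and 97.4 FPKM), and Txndc17 (108 and 142, then 228 and 513 FPKM) did not pass. Of 5 oxidant sources and other scavengers, Duox1 and Aifm2 were called higher, where 10.8% of all genes tested were. Duox1, an oxidase that makes hydrogen peroxide at the surface of keratinocytes, read 9.18 and 9.32 FPKM, then 25.1 and 18.6 FPKM (1.14, SE 0.27, adjusted p = 0.036). Aifm2, the ferroptosis suppressor FSP1, read 3.68 and 3.98 FPKM, then 9.77 and 17.4 FPKM (1.55, SE 0.34, adjusted p = 0.029). Neither Duox1 nor Aifm2 was called after rescaling to TPM (differences 0.61 and 1.06). The same held without the filter on low values (adjusted p = 0.059 and 0.071 by limma). Nox1 (2.15 and 3.56, then 3.97 and 8.52 FPKM) and Ccs, the copper chaperone of SOD1 (24.2 and 27.7, then 45.9 and 53.6 FPKM), did not pass.

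**Figure D5:**
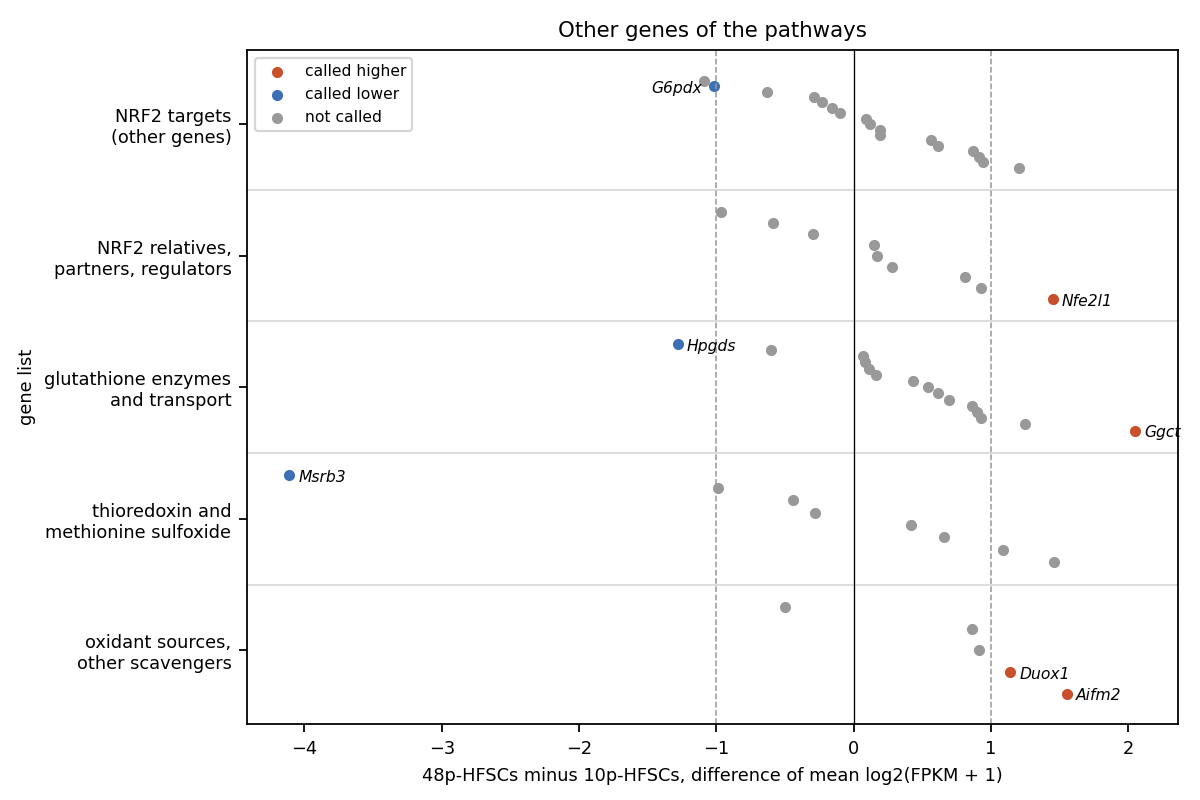
Difference between 48p-HFSCs and 10p-HFSCs in mean log2(FPKM + 1) for the 54 other pathway genes tested, each point a gene and each band a list, with dashed lines at -1 and 1 and called genes in red (higher) and blue (lower). Msrb3 (-4.11) stands alone at the left, and Ggct (2.05), Aifm2 (1.55), Nfe2l1 (1.45) and Duox1 (1.14) are the called genes at the right.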

How the data were processed

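Messenger RNA libraries (TruSeq stranded mRNA kit, single-end reads) of 10p- and 48p-HFSCs were compared, 2 per group, grouped by the passage number in their labels. The deposited files hold 1 FPKM value per gene symbol and library. Per the submitters' processing notes, the authors mapped reads to mm10 and made the FPKM values with TopHat2 2.1.1, Bowtie2 2.2.8, SAMtools 0.1.18 and Cuffdiff 2.2.1, while the study's methods name Cufflinks and later versions of Bowtie2 and SAMtools. The gene annotation and strand setting are not given in the sources used here, so that reads of overlapping or near-identical genes may be shared.

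FPKM values are not counts, so no count test was run. Values were taken as log2(FPKM + 1), genes with at least 1 FPKM in at least 2 libraries were kept, and 48p-HFSCs were tested against 10p-HFSCs in limma 3.58.1, run in R 4.3.3 (moderated test with a variance trend, two-sided, Benjamini-Hochberg adjustment over 11018 genes). Intervals are 95% intervals of this fit. The divisor of a library is known only relative to other libraries, from the most common ratio of low values, so that read depth, counting error and floors could not be given. The fit was also run on simulated data with independent noise for each gene and library. These lack the shifts with transcript length seen between the replicates here, so that no conclusion is drawn from them. Positions (mm10), lengths and the share of read-length windows found in other genes came from GENCODE M21 (GRCm38, the assembly mm10 names), which held 95.7% of the symbols, and promoter sequences from RefSeq on GRCm38.p6. Tables were made with Python 3.11.15 and pandas 2.3.3.

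The members, the pathway and marker lists and the alternatives were chosen with earlier results of these data known. Each member that passed the filter is named with its values and the others by their range. Of the pathway lists, the called genes and up to 2 uncalled genes a list with the highest mean FPKM are named. Alternatives were a pseudocount of 0.1, no filter, TPM rescaling, median-of-ratios scaling, quantile normalization, within-library correction for GC content and transcript length by splines with 4 degrees of freedom, the replicate number as a block with and without that correction, no fold limit, and leaving out each library. Median-of-ratios scaling could hardly move the values, since its factors were 1 to 1.011.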

Additional observations from a re-analysis of the deposited data

How the results depend on the processing

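The differences of the 6 called members over all alternatives were -8.03 to -5.34 for Prdx4, 3.43 to 6.50 for Gstt3, 0.95 to 1.73 for Gstm2, -2.61 to -1.49 for Gstm7, -2.09 to -1.21 for Gsta2 and -3.02 to -1.53 for Gsta3. Leaving out each library in turn gave 0 to 7 members called higher and 1 to 5 lower (2 and 4 with all libraries), 35 to 1936 of all genes higher and 140 to 1875 lower, and 0 to 14 pathway genes higher and 1 to 4 lower. The low counts came from leaving out an early library and the high ones from leaving out replicate 1 of 48p-HFSCs. Leaving out replicate 2 of 48p-HFSCs gave the same low count of pathway genes called lower and the same high count of members called lower. The cause was not tested. Without a filter on low values, 2 members and 637 of all genes were called lower, and 2 pathway genes higher. Rescaling to TPM moved the median of all genes from -0.03 to -0.56, so that its signs are relative to that shift; it gave 1 member higher and 7 lower, 623 of all genes higher and 0 pathway genes higher. Quantile normalization and the correction for length and GC content each gave 8 members lower, beside 1261 and 1172 of all genes.

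Same-numbered libraries deviated together (r = 0.408 across genes, a single value, since with 2 libraries a group both numbers must give the same), but they share only a number, and nothing says that they were prepared together. With the replicate number as a block, 3 members were called higher and 5 lower (Gpx4 and Gsr were added), beside 1613 and 1497 of all genes. In that fit 8 pathway genes were called higher. With the block and the correction for length and GC content together, 10 members and 1455 of all genes were called lower.

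The sign turned in uncalled genes only. After TPM rescaling it did so for Cat (-0.44), Gpx1 (-0.48), Gsto2 (-0.24), Gstz1 (-0.50), Prdx3 (-0.29), Prdx5 (-0.09), Prdx6 (-0.34) and Txnrd3 (-0.18), and after quantile normalization for Gpx1 (-0.27), Prdx5 (-0.02) and Prdx6 (-0.06). The correction for length and GC content, with and without the block, turned Gclc (0.10), Gpx1 (-0.49), Gsto2 (-0.16), Gstz1 (-0.19), Prdx3 (-0.04) and Prdx5 (-0.01). Leaving out each library in turn gave ranges that crossed 0 for Gclc (-0.27 to 0.16), Gpx1 (-0.26 to 0.47), Gsta1 (-0.45 to 0.14), Gstp1 (-0.58 to 0.05), Gstz1 (-0.10 to 0.23), Keap1 (-0.74 to 0.27), Nfe2l2 (-0.90 to 0.50), Prdx1 (-0.66 to 0.10), Prdx6 (-0.13 to 0.61), Srxn1 (-0.43 to 0.23), Txn1 (-0.62 to 0.15), Txnrd1 (-0.18 to 1.56), Cul3 (-0.67 to 0.07) and Ftl1 (-1.21 to 0.90).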
